A study of Polypedilum vanderplanki with 84 samples.

Results

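Mannitol is a sugar alcohol that draws water out of cells without being the protective sugar of this insect, and 1 h of exposure to it is the earliest point at which the study sampled an osmotic stress. This report concerns 6 of the 84 libraries of the series: 3 of Pv11 cells kept for 1 h in medium with 600 mM mannitol (Mannitol 1 h) and 3 of untreated Pv11 cells sampled at the same time (Control 1 h). They were chosen by their labels, and belong to a stress experiment of 54 libraries in 18 groups (mannitol, trehalose, NaCl, heat, paraquat or no treatment, each at 1, 3 and 24 h, with 3 libraries a group). All groups are cells of 1 line in the same insect medium, and the control cells received no osmolyte. For comparison, Trehalose 1 h cells received 600 mM trehalose, Paraquat 1 h cells 20 µM paraquat and Heat 1 h cells 42°C for 15 min. NaCl 1 h cells are named by the salt alone, because the sources disagree on its concentration. The methods call the 3 libraries biological replicates, but nothing ties them to separate cultures, so the p-values measure the spread between these libraries.

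Pv11 is a cell line derived from the sleeping chironomid *Polypedilum vanderplanki*, a midge whose larvae survive almost complete drying in a state called anhydrobiosis. The cells survive drying too, if they are first kept in trehalose, which raises the osmolarity of the medium as mannitol does. Late embryogenesis abundant (LEA) proteins are disordered, hydrophilic proteins that protect other proteins and membranes in dry cells. Many of the genes that encode them lie in a row on Chromosome 4, in the region ARId1, together with LIL genes (Lea-island-located genes). Heat shock factor (HSF) and the NF-Y complex, a transcription factor of the subunits NF-YA, NF-YB and NF-YC that binds the CCAAT box of promoters in animals, are named by the study as regulators of anhydrobiosis in this insect. The gene set gives identifiers and no product names, so other genes are described by number and level, and the identity of the cells was not checked against markers.

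The values are TPM, the length-corrected abundance of a transcript relative to all transcripts of the same library. The transcripts of a gene were added up. Of 18248 genes, 9450 had a mean TPM above 1 over the 84 libraries and were tested with limma on log2(TPM + 1). A call required a fold change above 2 and an adjusted p (Benjamini-Hochberg, over all genes tested) under 0.05. Read depth is unknown. The libraries are bulk samples, so fewer expressing cells and less RNA per cell cannot be told apart.

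Mannitol 1 h replicate 1 stood apart from the other libraries of its group. Across the genes tested, its log2 values had a Pearson correlation of 0.970 with replicate 2 and 0.971 with replicate 3, while replicates 2 and 3 reached 0.993 with each other. Its correlations with Control 1 h replicates 1, 2 and 3 were 0.967, 0.975 and 0.967. Mannitol 1 h replicates 2 and 3 correlated most with Control 1 h replicate 3, at 0.979 and 0.981. The Control 1 h libraries had 0.988 to 0.992 among themselves. These are descriptions over genes of the same libraries, with no test. Total counts of genes called at 1 h, and genes whose adjusted p passed 0.05 only with replicate 1, are given with and without it. Counts of calls within gene lists are given with all libraries only.

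After 1 h of mannitol, 361 of the 9450 genes were called (3.82%), of which 41 rose (0.434%) and 320 fell (3.39%). How many of them rose and how many fell varied with the scaling of the libraries. With TPM as deposited, 79.3% of all genes tested had a log2 change below 0 and the median change was -0.34. Median ratio scaling sets the typical gene, out of 9254 with values above 0 in all libraries, to the same level in each of them. After it, the median was 0.00, and 107 genes rose (1.13%) and 35 fell (0.37%). All 41 rises called with TPM as deposited were also called after scaling, and so were 35 of the 320 falls. No gene was called in opposite directions. Without Mannitol 1 h replicate 1, 601 genes were called, 34 up and 567 down, and after scaling 175, 127 up and 48 down.

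**Figure D1:**
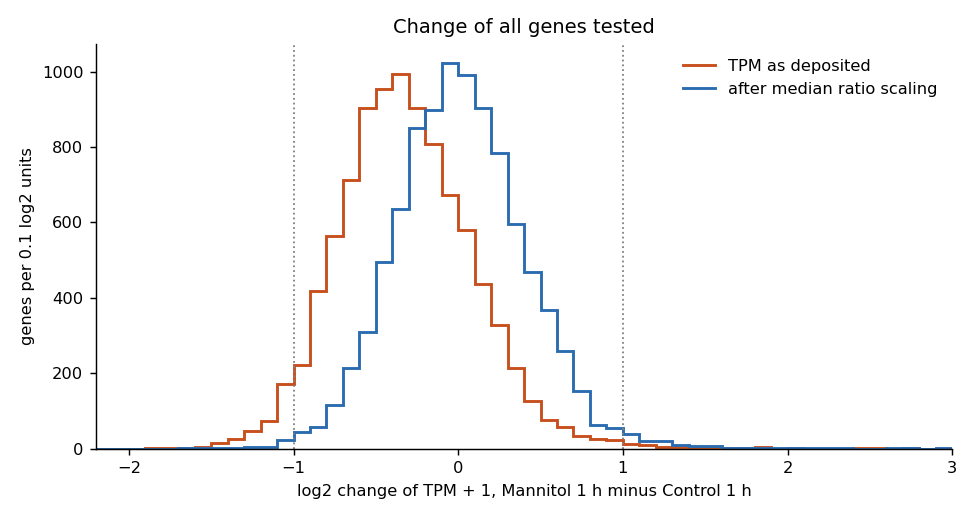
Number of genes (y axis, per 0.1 log2 units) by log2 change of TPM + 1 in Mannitol 1 h against Control 1 h (x axis), for 9450 genes with TPM as deposited and after median ratio scaling. The dotted lines mark a fold change of 2. The median lies at -0.34 with TPM as deposited and at 0.00 after scaling.

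The most abundant genes took a larger share of the libraries under mannitol. The 100 most abundant genes of each library held 45.2%, 44.1% and 47.5% of the TPM in the Control 1 h libraries and 49.0%, 54.8% and 54.5% in the Mannitol 1 h libraries. All mannitol libraries lay above all control libraries, with replicate 1 the lowest, and the difference of the means was 7.14 percentage points (exact permutation test, two-sided, p = 0.1, the smallest that 3 against 3 libraries allow). The 150 genes with a mean of 1000 TPM or more in Control 1 h held 51.5% to 55.0% of a control library and 56.8% to 62.4% of a mannitol library. Of these genes, 75 had all mannitol libraries above all control libraries and 9 had all below. Over all genes tested, 6.3% lay entirely above and 45.0% entirely below.

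By their level in Control 1 h, the calls were spread unevenly. Genes under 1 TPM gave 21 of the 41 rises and 0 of the 320 falls, from 497 genes tested. Of the falls, 145 came from 2445 genes of 5 to 20 TPM and 142 from 3451 genes of 20 to 100 TPM. The median log2 change was 0.16 for genes under 1 TPM, -0.46 for genes of 5 to 20 TPM and 0.20 for genes of 1000 TPM or more. After scaling the same medians were 0.32, -0.12 and 0.59. These classes use the control values of the comparison itself, so they are a description, and on the log2(TPM + 1) scale a fall of a gene under 1 TPM cannot reach a fold change of 2. Genes under 1 TPM in Control 1 h were tested only if other libraries, which can include those with mannitol, brought their mean over the 84 libraries above 1. This selection favours rises in that class.

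**Figure D2:**
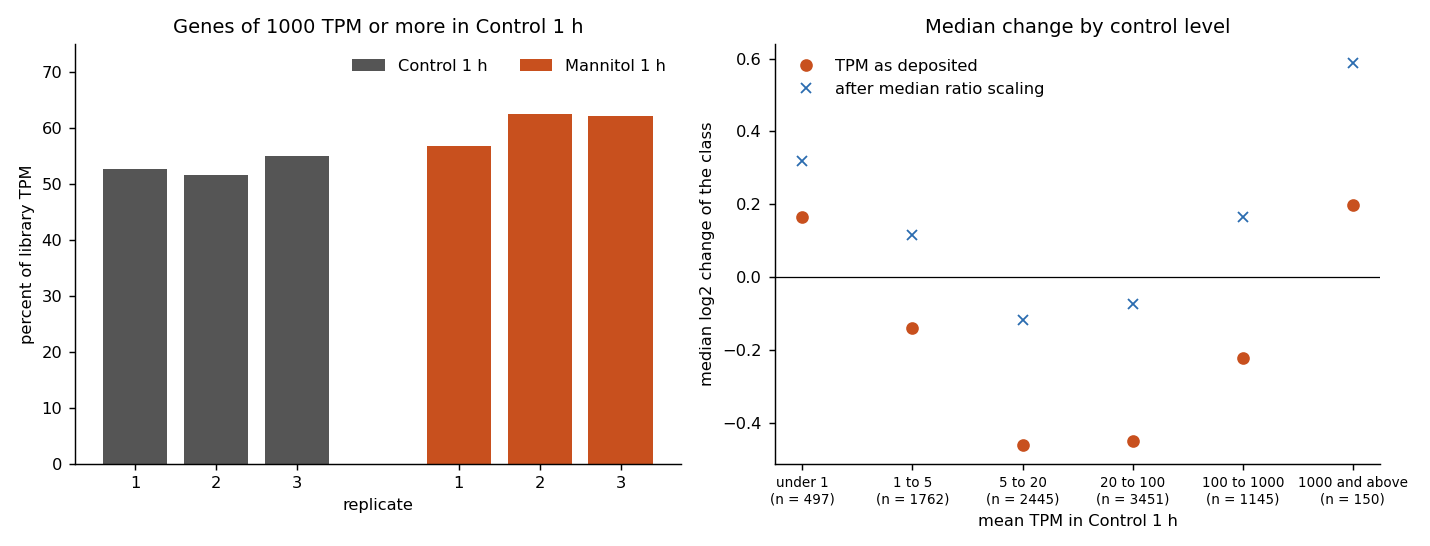
Left, percent of library TPM (y axis) held by the 150 genes of 1000 TPM or more in Control 1 h, in each of the 6 libraries; the bars range from 51.5% to 55.0% in control and from 56.8% to 62.4% in mannitol libraries. Right, median log2 change of TPM + 1 (y axis) for genes grouped by mean TPM in Control 1 h (x axis), which is lowest for genes of 5 to 20 TPM, with TPM as deposited and after scaling.

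The 2 largest rises were in g2639 and g2635, genes whose numbers lie 4 apart in the gene set and to which no product is assigned here. For g2639, the control libraries had 1.41, 1.17 and 1.15 TPM and the mannitol libraries 15.7, 12.3 and 13.5 TPM. The groups were far apart, at 1.24 ± 0.145 against 13.8 ± 1.73 TPM (SD, n = 3), a ratio of 11.1. The log2 change was 2.72 (SE 0.21, limma adjusted p = 3.26e-13), which understates the ratio because 1 is added to a low value. g2635 had 14.8, 16.4 and 13.7 TPM in control and 103, 91.8 and 89.6 TPM in mannitol libraries. All 3 mannitol libraries were thus above all controls, by a ratio of 6.33 in the means (log2 change 2.59, SE 0.08, limma adjusted p = 8.79e-25). Both changes were larger after scaling, at 3.02 and 2.96.

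Both genes were also high at later times. g2639 had 11.3 to 14.5 TPM in Mannitol 3 h libraries and 6.08 to 7.16 TPM in Mannitol 24 h libraries, against 0.71 to 0.94 and 1.11 to 1.92 TPM in the controls of those times. g2635 had 87.3 to 92.2 TPM at 3 h against 15.3 to 16.6 TPM in control, and 59.6 ± 5.37 TPM (SD, n = 3) at 24 h against 10.1 to 10.8 TPM. Neither gene had a high level 1 h after heat or under paraquat: g2635 had 11.4 to 13.4 TPM after heat and 11.7 to 15.0 TPM under paraquat. In the other osmotic stresses g2635 had 60.3 to 66.1 TPM in Trehalose 1 h and 123 to 131 TPM in NaCl 1 h libraries. Its mannitol libraries lay between these groups and overlapped neither, with a log2 difference of 0.56 from trehalose (SE 0.08, limma adjusted p = 2.34e-05) and of -0.44 from NaCl (SE 0.08, limma adjusted p = 3.48e-04), both under the fold change of 2.

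The 2 largest falls were in g16102 and g8741. g16102 had 21.2, 16.2 and 18.2 TPM in control libraries and 3.97, 4.19 and 4.72 TPM in mannitol libraries. The groups did not overlap, and the mean fell from 18.6 ± 2.52 to 4.29 ± 0.386 TPM (log2 change -1.88, SE 0.22, limma adjusted p = 4.9e-09; after scaling -1.54). Its level went the other way after heat, with 89.5 to 95.5 TPM in Heat 1 h libraries. For g8741, the control libraries had 7.96, 9.07 and 6.76 TPM, and the mannitol libraries had 3.31 and 2.33 TPM and 1 listed at 0. All were below the controls, but the library at 0 weighs on the size of the change (log2 change -1.87, SE 0.34, limma adjusted p = 1.76e-05), which was -1.23 without it.

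The 41 rises were mostly small genes in terms of level, with a median of 0.98 TPM in control and 4.53 TPM in mannitol. Their log2 changes ran from 1.00 to 2.72, with a median of 1.27, and in all 41 the mannitol libraries lay above all control libraries. Of them, 31 were also called without Mannitol 1 h replicate 1, with and without scaling. The 320 falls had a median of 18.6 TPM in control and 8.14 TPM in mannitol, with log2 changes down to -1.88 and a median of -1.10. In 314 of them the libraries did not overlap, and 292 were also called without replicate 1 with TPM as deposited. Over all genes tested, 6.3% lay entirely above the controls and 45.0% entirely below. Rises and falls were called on these same libraries, so their separation is largely built in and is no further support. Called with and without scaling, and with and without replicate 1, were 25 of the falls. On the log2(TPM + 1) scale the rises named above reached a fold change above 4, as did 2 further rises and no fall. The added 1 matters here, because in plain TPM the mannitol means of g16102 and g8741 were 0.231 and 0.237 of the control means.

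HSF (g3611), the activator of heat shock genes, had 239, 226 and 206 TPM in control libraries and 282, 201 and 205 TPM in mannitol libraries. Only replicate 1 was above the controls, and the others were below the lowest control. The log2 change of 0.02 (SE 0.20, limma adjusted p = 0.939) turned to -0.14 without replicate 1 and to -0.04 without Control 1 h replicate 3. After scaling it was 0.41 (limma adjusted p = 3.74e-04), below a fold change of 2. At 3 h HSF was at 474 to 579 TPM under mannitol and 141 to 263 TPM in control (log2 change 1.45, SE 0.20), and the response at 3 h exceeded that at 1 h by 1.43 (limma adjusted p of the difference 7.53e-05). It was also higher at 24 h, with 259 to 394 TPM against 123 to 152 TPM. At 1 h the Trehalose libraries had 329, 329 and 377 TPM, above every mannitol library, but the direct log2 difference of -0.60 (SE 0.20) did not pass the test (limma adjusted p = 0.0868). After scaling that difference was -0.49 (limma adjusted p = 2.98e-04), also short of a fold change of 2.

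The 3 NF-Y subunits all had lower values under mannitol at 1 h. NF-YA (g7210), the subunit that recognises the CCAAT sequence, had 97.1, 89.4 and 95.6 TPM in control and 57.0, 51.0 and 51.8 TPM in mannitol libraries. The groups were clearly separate, and the log2 change was -0.81 (SE 0.06, limma adjusted p = 2.64e-13), short of a fold change of 2. NF-YB (g5893), which pairs with NF-YC through a histone fold, went from 28.7, 28.5 and 26.5 TPM to 14.5, 16.7 and 21.2 TPM, with no overlap (log2 change -0.66, SE 0.21, limma adjusted p = 0.00891). Without replicate 1 the change of NF-YB was -0.54 (limma adjusted p = 0.0511). NF-YC (g11889) went from 22.3, 18.3 and 23.0 TPM to 11.1, 11.2 and 12.4 TPM, also without overlap (log2 change -0.81, SE 0.11, limma adjusted p = 2.42e-07). None of the 3 reached the fold change needed for a call, and an adjusted p under 0.05 with a change below 0 was found for 39.3% of all genes tested. After scaling the changes were -0.43 for NF-YA (limma adjusted p = 0.019), -0.29 for NF-YB (0.451) and -0.45 for NF-YC (0.047), and scaled without replicate 1 none of the 3 passed (0.0642, 0.85 and 0.192 in the same order).

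Under mannitol the NF-Y subunits stayed below their controls at 3 and 24 h. NF-YA had 38.5 to 39.7 TPM at 3 h and 36.1 to 37.8 TPM at 24 h, against 98.1 to 104 and 73.8 to 88.4 TPM in control, and both differences were called (log2 changes -1.34 and -1.12), but the change at 3 h was -0.86 after scaling and no longer a call. NF-YB was called at 3 h (log2 change -1.60) and not at 24 h (-0.75). NF-YC was not called at either time, with -0.97 and -0.45. In the 1 h groups of the other osmotic stresses NF-YA had 51.9 to 56.9 TPM with trehalose and 56.2 to 60.3 TPM with NaCl, and it had 84.5 to 88.7 TPM after heat and 88.7 to 90.7 TPM under paraquat.

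**Figure D3:**
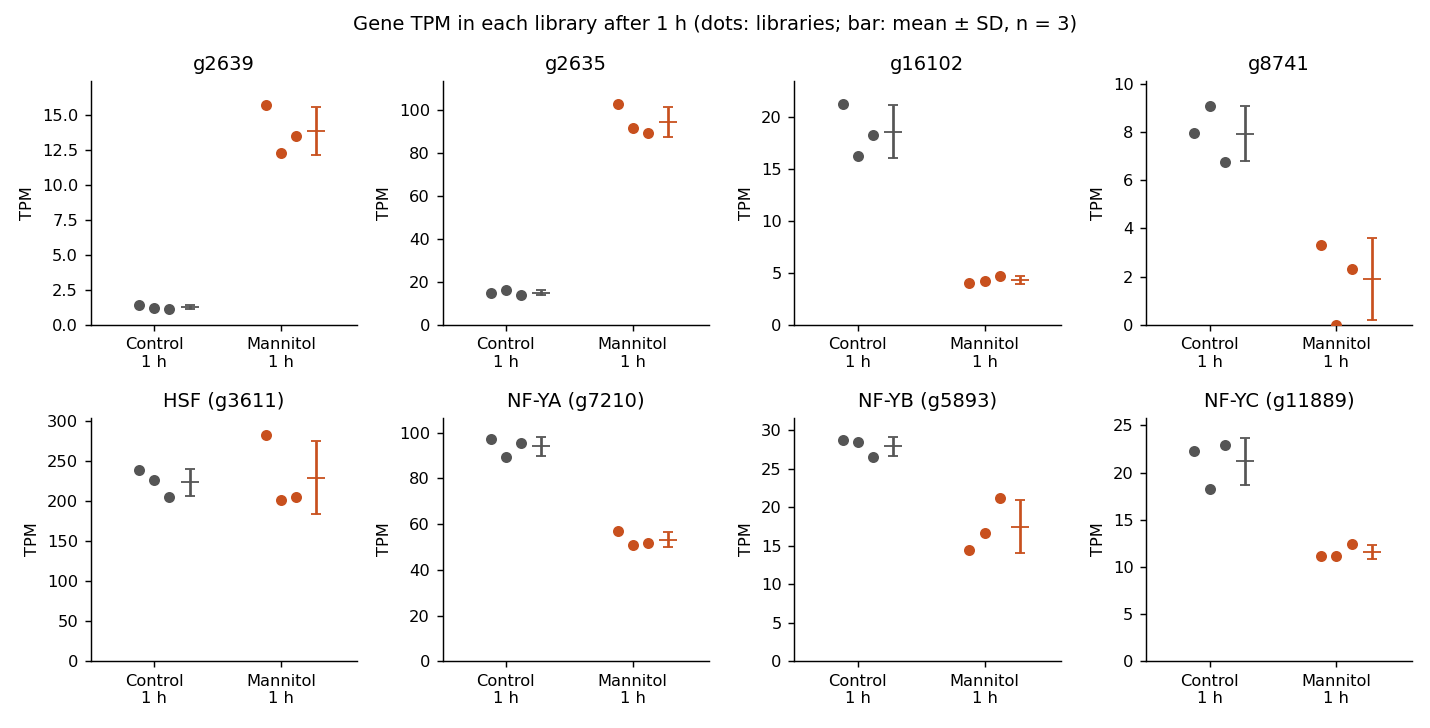
TPM (y axis, from 0) in each of the 3 Control 1 h and 3 Mannitol 1 h libraries, for the 2 largest rises, the 2 largest falls, HSF and the NF-Y subunits. Dots are libraries and the bars beside them are mean ± SD (n = 3); the groups overlap for HSF only.

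ARId1 is taken here as the run from g16168 to g16208 that the study divides into Blocks, and its whole region holds more genes than these. Of the run, 40 genes are in the table and 39 were tested. With TPM as deposited 0 of the 39 were called in Mannitol 1 h, where 361 of all 9450 genes were (3.82%). With 39 genes, 0 calls is not far from that share. An adjusted p under 0.05 alone was reached by 10 of the 39 upward and 5 downward, against 4.41% upward and 39.3% downward of all genes tested. After scaling this was 17 upward and 0 downward, against 13.9% upward and 1257 of 9450 downward over all genes tested. The median log2 change of the 39 was 0.08, beside -0.34 for all genes, and 0.42 beside 0.00 after scaling. In 13 of them all mannitol libraries lay above all controls, and in 7 all lay below. Over all genes tested these shares were 6.3% and 45.0%. The 40 genes together held 3.74%, 3.78% and 3.63% of the TPM in control libraries and 4.03%, 3.60% and 3.62% in mannitol libraries, so the groups overlapped (exact permutation test, two-sided, p = 1). After scaling, 2 ARId1 genes were called, both up, where 1.13% of all genes rose. They are g16188 and g16196, which are named here because their values were seen.

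The genes of Block 1, a run of LIL and LEA genes and the largest of 4 groups into which the study divided ARId1, had changes in both directions with TPM as deposited. Of its 28 genes tested, 9 had an adjusted p under 0.05 upward and 4 downward, beside 4.41% and 39.3% of all genes tested. After scaling there were 13 upward and 0 downward, beside 13.9% upward and 1257 of 9450 downward. With TPM as deposited the upward values were at g16168, g16169 and between g16184 and g16196, and the downward values between g16171 and g16183. g16188 had 66.7, 66.7 and 66.8 TPM in control and 114, 99.7 and 99.2 TPM in mannitol libraries (log2 change 0.64, SE 0.10, limma adjusted p = 2.62e-06; after scaling 1.02). g16196 had 40.2, 32.8 and 37.1 TPM in control and 67.7, 53.7 and 57.9 TPM in mannitol libraries (log2 change 0.69, SE 0.17, limma adjusted p = 0.00111; after scaling 1.07). In both genes the groups were separate, with replicate 1 the highest of the mannitol libraries. The abundant g16187 was also separate, going from 1352, 1386 and 1486 TPM to 1967, 1995 and 1840 TPM (log2 change 0.46, SE 0.06, limma adjusted p = 8.02e-08).

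Of the genes with lower values, g16171 had 9.20, 10.6 and 10.7 TPM in control and 5.71, 5.96 and 5.18 TPM in mannitol libraries (log2 change -0.75, SE 0.18, limma adjusted p = 6.26e-04). After scaling its change was -0.41 (limma adjusted p = 0.0897). g16173 had 2.67, 3.83 and 2.00 TPM in control and 1.27, 1.03 and 1.40 TPM in mannitol libraries (log2 change -0.76, SE 0.19, limma adjusted p = 0.00102; after scaling -0.51, adjusted p = 0.0613). At 24 h the same gene was at 24.3 ± 1.52 TPM (SD, n = 3) under mannitol and 5.13 to 7.45 TPM in control. PvLil6 (g16168), the LIL gene with the first number of the Block, had 1.86, 2.23 and 2.01 TPM in control and 4.34, 3.52 and 2.89 TPM under mannitol, again without overlap (log2 change 0.59, SE 0.20, limma adjusted p = 0.0151). Without replicate 1 it was 0.47 (limma adjusted p = 0.0766), and g16184 went from 0.32 (0.00602) to 0.19 (0.107). Both passed after scaling, with and without replicate 1.

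Block 2 comprises 3 genes, among them PvLil11 (g16198) and PvLil2 (g16200), and all had low levels at 1 h. PvLil2 had 1.78, 1.05 and 1.16 TPM in control and 2.48, 1.63 and 1.70 TPM in mannitol libraries, and the groups overlapped (log2 change 0.34, SE 0.30, limma adjusted p = 0.389). It rose later, to 3.70 to 8.21 TPM at 3 h against 0.53 to 2.82 TPM, and to 4.78 to 10.6 TPM at 24 h against 0.50 to 0.92 TPM (log2 changes 1.56 and 2.29, both called). PvLil11 had 0.87 to 1.34 TPM in control and 1.18 to 2.17 TPM in mannitol libraries, which did not differ beyond their spread (limma adjusted p = 0.564). g16199, between them, stayed at or below 0.29 TPM in all 6 libraries.

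Blocks 3 and 4 hold LEA genes that are already abundant in untreated cells. PvLea4 (g16204) had 7334, 7434 and 7296 TPM in control and 7659, 6684 and 6716 TPM in mannitol libraries, where replicate 1 was above all controls and the others below (log2 change -0.07, SE 0.06, limma adjusted p = 0.395; after scaling 0.32). PvLea5 (g16205) had 3704, 4291 and 3442 TPM in control and 5240, 3120 and 3171 TPM in mannitol libraries, again with replicate 1 above and the others below every control (log2 change -0.03, SE 0.25, limma adjusted p = 0.942; after scaling 0.36). PvLea17 (g16201) went from 43.1, 44.7 and 39.3 TPM to 44.6, 51.2 and 50.9 TPM, with a small overlap (log2 change 0.20, SE 0.07, limma adjusted p = 0.0184). PvLea11 (g16208) had 1019, 1078 and 926 TPM in control and 1286, 1023 and 996 TPM under mannitol (log2 change 0.12, SE 0.15, limma adjusted p = 0.546). After scaling the change was 0.58 for PvLea17 (limma adjusted p = 5.1e-04) and 0.51 for PvLea11 (limma adjusted p = 7.55e-05), both below a fold change of 2. The gene of Block 3 with the clearest difference, g16202, went from 1929, 1810 and 1616 TPM to 1363, 1285 and 1326 TPM without overlap (log2 change -0.43, SE 0.09, limma adjusted p = 1.1e-04), and its change was -0.04 after scaling. It was picked for its value.

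More ARId1 genes rose at the later times. Under mannitol, 9 of the 39 genes rose at 3 h and 23 at 24 h, with 0 falls at either time, where 4.59% and 8.46% of all genes rose. Block 1 gave 8 of the rises at 3 h and 19 at 24 h. The median log2 change of the 39 genes was 0.35 at 3 h and 1.28 at 24 h. After scaling, 17 rose at 3 h and 23 at 24 h, where 10.0% and 9.27% of all genes did. The difference between 24 h and 1 h was tested per gene, and for PvLea17 it was 1.09 (limma adjusted p = 1.73e-11), for PvLea11 1.17 (limma adjusted p = 3.66e-05) and for PvLil2 1.96 (limma adjusted p = 3.15e-04). After scaling it was 0.69 for PvLea17 and 0.77 for PvLea11, which were then no calls, and 1.83 for PvLil2.

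**Figure D4:**
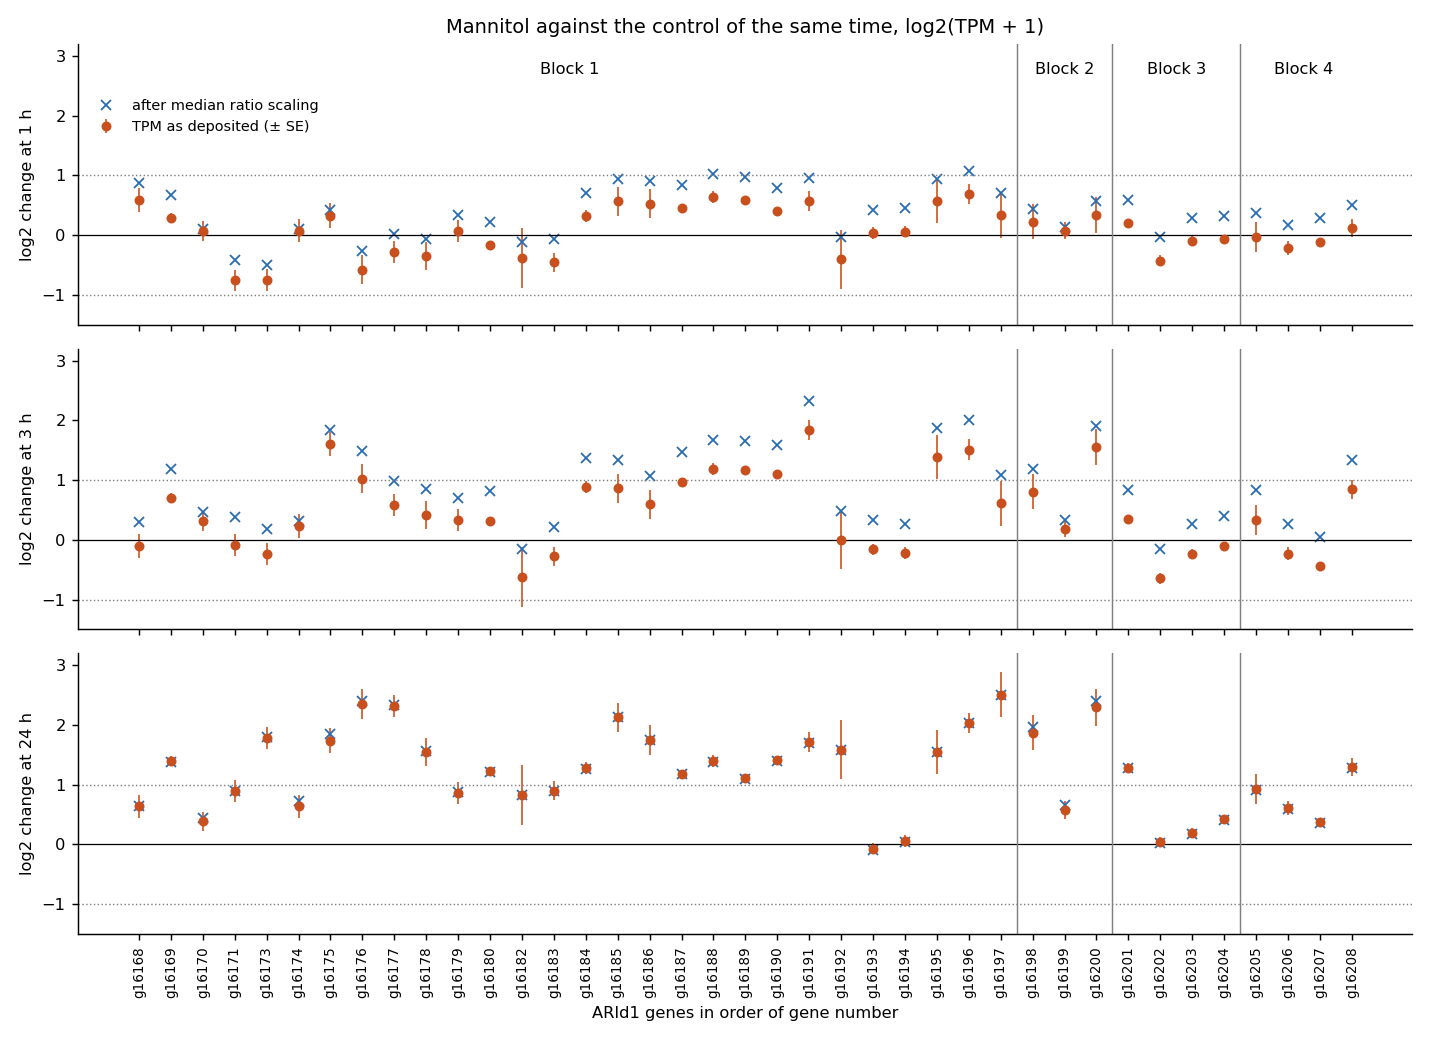
Log2 change of TPM + 1 under mannitol against the control of the same time (y axis) for 39 ARId1 genes in order of gene number (x axis), at 1, 3 and 24 h, as deposited (± SE) and after median ratio scaling. Vertical lines part the Blocks and dotted lines mark a fold change of 2; with TPM as deposited 0, 9 and 23 genes were called.

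Outside ARId1, PvLea12a (g17258), a LEA gene elsewhere in the genome, had 0.48, 0.69 and 0.00 TPM in control and 0.29, 0.27 and 0.26 TPM in mannitol libraries, a level too low to compare. PvLea12b (g17260) was listed at 0 in 5 of the 6 libraries and was not tested. The gene g7775, which lies downstream of a strong promoter that the study examined, is among the most abundant genes of these cells. It had 42283, 41444 and 46841 TPM in control and 43527, 48545 and 51560 TPM in mannitol libraries, with overlapping groups (log2 change 0.14, SE 0.09, limma adjusted p = 0.232). The noncoding RNA nc472, which lies at that promoter, had 384, 325 and 314 TPM in control and 280, 256 and 293 TPM in mannitol libraries, all lower, but the change of -0.30 (SE 0.20) did not pass the test (limma adjusted p = 0.236) and was 0.09 after scaling.

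Noncoding genes gave 2 of the rises and 6 of the falls, from 507 tested, beside 0.434% and 3.39% of all genes. After scaling there were 12 rises and 1 fall, beside 1.13% and 0.37% of all genes. The balance turned in both sets. Their median log2 change was -0.16 with TPM as deposited and 0.06 after scaling. With TPM as deposited it was 0.27 in Mannitol 1 h replicate 1 and -0.37 and -0.38 in replicates 2 and 3. After scaling it was 0.42 in replicate 1 and -0.05 and -0.07 in replicates 2 and 3. The scaled median above 0 thus rested on 1 library, and without replicate 1 it was -0.08. Their summed share was 2.12%, 2.05% and 2.00% in control and 2.24%, 2.43% and 2.39% in mannitol libraries, all higher than any control (difference 0.295 percentage points, exact permutation test, two-sided, p = 0.1, the smallest possible).

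At the level of transcripts, 122 of 22728 rose (0.537%) and 580 fell (2.55%), or 220 and 108 after scaling. Of the rising transcripts, 76 belonged to genes whose sum was not called, and so did 295 of the falling transcripts. In 5 genes 1 transcript rose and another fell. ARId1 gave 2 of the rising and 3 of the falling transcripts, from 492 tested, and 4 and 1 after scaling.

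Most of the rises of the first hour were still present at 3 h. The log2 changes at 3 and 24 h come from libraries and controls other than those of the 1 h change. All of these libraries share the fit that estimates the spread and the filter on mean TPM, so the calls are not fully separate. Of the 41 genes that rose at 1 h, 28 rose at 3 h and 20 at 24 h, and 0 fell at either time, where 4.59% and 8.46% of all genes tested rose. All 20 of the genes that rose at 24 h had also risen at 3 h, and 13 were called at neither later time. By a test of the difference, the response at 3 h was higher than that at 1 h in 13 of the 41 (31.7%) and lower in 7 (17.1%), beside 4.23% higher and 5.33% lower of all genes, and the median difference of the 41 was 0.18. The 1 h values chose the genes and enter this difference, which pulls it toward lower values.

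The falls were also mostly present at 3 h and mostly absent at 24 h. Of the 320 genes that fell at 1 h, 197 fell at 3 h (61.6%, where 20.6% of all genes fell) and 41 at 24 h (12.8%, where 4.76% of all fell). With both times scaled, 119 of the 320 fell at 3 h (37.2%, beside 6.81% of all genes). Of the 35 falls called in both scalings, 24 fell at 3 h and 7 at 24 h. The median log2 change of the 320 was -1.19 at 3 h and -0.20 at 24 h. Compared with 1 h, the response at 24 h was higher in 126 of them and lower in 3 by a test of the difference, beside 14.8% higher and 2.31% lower of all genes. After scaling these counts were 64 and 6, beside 7.97% and 7.14%. A return toward 0 is built into this test, since the 1 h values chose the genes. g16102 had 2.98 to 7.37 TPM at 3 h against 44.5 to 65.7 TPM in control, and 16.5 to 22.1 TPM at 24 h against 22.6 to 30.1 TPM.

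**Figure D5:**
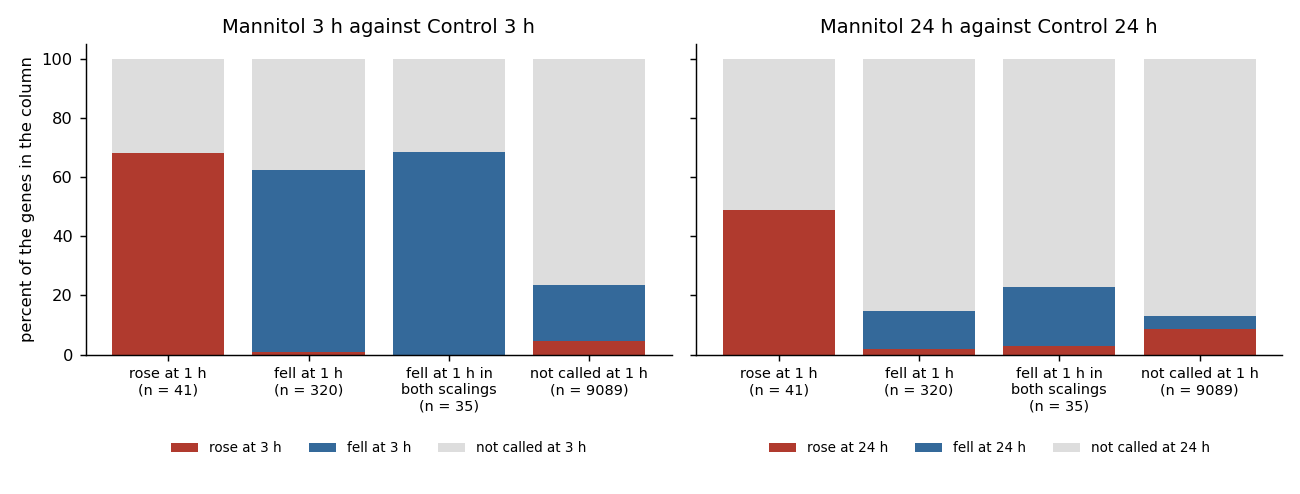
Percent of genes (y axis) called as risen, fallen or not called at 3 h (left) and 24 h (right) under mannitol, for genes grouped by their call at 1 h (x axis), with TPM as deposited. Of the 41 rises 68.3% rose at 3 h and 48.8% at 24 h, and of the 320 falls 61.6% fell at 3 h and 12.8% at 24 h.

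Over all genes, more calls were made at 3 h than at 1 h. Mannitol 3 h gave 2378 calls (25.2%), 434 up and 1944 down, or 948 up (10.0%) and 644 down (6.81%) after scaling. Mannitol 24 h gave 1249 calls (13.2%), 799 up and 450 down. The response at 3 h was called as different from that at 1 h in 904 genes (9.57%). That at 24 h was called so in 1617 genes (17.1%).

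Mannitol 1 h was compared directly with 3 of the other stresses, of which trehalose was given at the same concentration. Against trehalose 20 genes were called (0.212%), 4 higher and 16 lower with mannitol, or 9 higher and 10 lower after scaling. The median SE of a log2 difference was 0.174. Differences under a fold change of 2 are not among the 20. Without Mannitol 1 h replicate 1 there were 44, and without Trehalose 1 h replicate 3 there were 13. An adjusted p under 0.05 alone was found for 282 genes. Of the 41 rises under mannitol 2 were among the 20, and of the 320 falls 1. The median log2 difference from trehalose was 0.35 over the 41 rises and -0.16 over the 320 falls. These genes were chosen on Mannitol 1 h libraries that enter this comparison too, so the overlap is only a description.

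Of these 20 genes, 3 belong to ARId1 Block 1, and they are named because of this: g16173, g16175 and g16176. g16176 had 2.63, 2.68 and 3.23 TPM with mannitol, 7.45, 10.5 and 10.4 TPM with trehalose, and 8.44, 3.46 and 3.46 TPM in control. Its mannitol libraries were all below both other groups (log2 difference from trehalose -1.43, SE 0.25, limma adjusted p = 1.98e-04). g16173 had 4.06, 4.24 and 3.87 TPM with trehalose, above every mannitol library (log2 difference -1.18, SE 0.19, limma adjusted p = 5.02e-05). g16175 had 0.58, 0.18 and 0.71 TPM with mannitol and 1.77, 2.81 and 2.38 TPM with trehalose (log2 difference -1.16, SE 0.20, limma adjusted p = 2.82e-04). All 3 were called after scaling as well, and at 3 h the mannitol libraries of g16175 and g16176 had risen above their controls, to 2.88 to 4.16 and 18.3 to 22.1 TPM.

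NaCl was compared with mannitol in the same way. The comparison called 71 genes (0.751%), 19 higher and 52 lower with mannitol. Without NaCl 1 h replicate 2 there were 107, and without Mannitol 1 h replicate 1 there were 105. Of the 41 rises under mannitol 13 were among the 71, and of the 320 falls 8. The median log2 difference from NaCl was -0.43 over the 41 rises and 0.26 over the 320 falls. The Mannitol 1 h libraries chose these genes and also enter this comparison, so the overlap is only a description. ARId1 gave 4 of the 71, all in Block 1 and all lower with mannitol, also after scaling. g16184 had 98, 101 and 95 TPM in control, 147, 108 and 115 TPM with mannitol and 401, 312 and 348 TPM with NaCl (log2 difference -1.52, SE 0.10, limma adjusted p = 1.91e-15). g16179 had 2.45, 2.51 and 1.65 TPM with mannitol and 8.40, 8.69 and 10.8 TPM with NaCl (log2 difference -1.69). The other 2 were PvLil6, with 9.23 to 10.1 TPM under NaCl, and g16196, with 122 to 141 TPM. PvLea4 had 11800 to 13284 TPM under NaCl and no overlap with its mannitol libraries (log2 difference -0.86, SE 0.06, limma adjusted p = 4.84e-13).

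The comparisons of the 1 h stresses with Control 1 h share their controls, so only their values are set side by side. Over the 41 rises of mannitol the median log2 change was 1.27 with mannitol, 1.15 with trehalose, 1.90 with NaCl, 0.22 after heat and 0.12 with paraquat. Over the 320 falls it was -1.10, -0.97, -1.37, 0.08 and 0.23 in the same order. After scaling the medians of the falls were -0.76, -0.71, -0.995, -0.003 and 0.02. Over all genes tested the medians with TPM as deposited were -0.34, -0.23, -0.33, 0.08 and 0.17. The rises and falls were chosen for their mannitol values, which the shared controls carry into every stress. Paraquat compared directly with mannitol gave 1383 calls (14.6%), 37 higher and 1346 lower with mannitol, and 176 higher and 122 lower after scaling. Without Mannitol 1 h replicate 1 there were 2100 calls.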

How the data were processed

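The authors extracted RNA, made TruSeq libraries, mapped the reads to their coding sequences with Bowtie2 and quantified them with RSEM. They tested mapped counts with DESeq2 and edgeR, and those counts were not used here. The authors deposited TPM per transcript in a single file, for 66333 transcripts in 84 columns, each matched by name to 1 sample (0 columns unused). TPM gives no depth, so no counting error can be stated. The identical total of every library also means that a gain of abundant genes lowers the others.

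Transcripts were summed per gene (the ID without its transcript suffix). Log2(TPM + 1) of the 54 stress libraries was fitted in R 4.3.3 using data.table (1.17.8) and limma 3.58.1, with 1 coefficient per group, a variance trend and empirical Bayes moderation. Adjusted p-values are Benjamini-Hochberg values over all 9450 genes, or over 22728 transcripts, per comparison. The fit was tested on simulated data. Tables and plots used Python 3.11.15, numpy 2.4.6, pandas 2.3.3 and matplotlib 3.10.9. Shares of TPM were compared by exact permutation. ARId1 is g16168 to g16208. No set test was run.

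Genes named by rule are those that the study names by ID, ARId1 genes called in Mannitol 1 h, and the 2 largest rises and 2 largest falls among called genes whose libraries do not overlap. PvLea9a and PvLea9b are not analysed here, and lists that need product names were not run. Members and lists were chosen with earlier results of these data known.

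Alternatives were median ratio scaling, a pseudocount of 0.1, other minimums of mean TPM (0.5, 2, above 1 over the 6 libraries, or none), a fit of the 6 libraries, no trend, array weights, a replicate block, each library or replicate number left out, and other thresholds. Scaling without Mannitol 1 h replicate 1, scaling with the p threshold alone, gene lists without replicate 1, and a library score as covariate were added after seeing the data.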

Additional observations from a re-analysis of the deposited data

Results flagged for a closer look

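The results below stand out because the response to mannitol at a later time differed from that at 1 h by a test of the difference itself (limma, adjusted p under 0.05). They are log2 responses at the later time minus that at 1 h. The tests use the Control 1 h and Mannitol 1 h libraries, so a chance deviation at 1 h enters each of them. The counts of genes that follow also required a fold change above 2, which the genes named below did not all reach. The response at 3 h differed in 904 genes (400 higher, 504 lower). That at 24 h differed in 1617 genes (1399 higher, 218 lower). After median ratio scaling there were 586 higher and 350 lower at 3 h, and 753 higher and 675 lower at 24 h.

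Among the transcription factors, HSF was higher by 1.43 at 3 h and by 1.14 at 24 h (0.74 after scaling, below a fold change of 2). NF-YA had -0.53 at 3 h (limma adjusted p 0.0848 after scaling) and -0.31 at 24 h (-0.71 after scaling). NF-YB had -0.94 at 3 h (limma adjusted p 0.0705 after scaling). In addition, nc472 had -0.76 at 3 h and g7775 had -0.39 at 24 h (-0.79 after scaling).

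In ARId1, PvLil2 was higher by 1.22 at 3 h and 1.96 at 24 h, and PvLea11 by 0.72 and 1.17 (0.77 at 24 h after scaling). At 24 h PvLil11 was higher by 1.65, g16199 by 0.50, PvLea17 by 1.09 (0.69 after scaling), PvLea4 by 0.49 (0.08 after scaling, limma adjusted p 0.69) and PvLea5 by 0.96 (0.55 after scaling, limma adjusted p 0.0562). Outside ARId1, PvLea12a was higher by 1.00 at 24 h. At 1 h its level was too low to compare, with means of 0.39 TPM in control and 0.27 TPM with mannitol. That of g16199 was lower still, at 0.10 and 0.17 TPM in the same order. Of the largest changes, g2639 had -1.07 at 24 h, g16102 -1.39 at 3 h and 1.44 at 24 h, and g8741 2.10 at 24 h.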

How the results depend on the processing

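The count of 361 genes called in Mannitol 1 h kept within 1.5 times under the other filters, the fit of the 6 libraries, no trend, the replicate block and the library score (244, of which 79 up). It was 142 after median ratio scaling, 669 with a pseudocount of 0.1, 762 with array weights, whose estimate stopped before convergence, 4130 at an adjusted p under 0.05 alone and 4 (all up) when a fold change above 4 and an adjusted p under 0.001 were required. Scaling gave 2574 at the p threshold alone (1317 up) and 175 with Mannitol 1 h replicate 1 left out. Transcripts called went from 702 to 328 with scaling, Mannitol 1 h against Paraquat 1 h from 1383 to 298, and a pseudocount of 0.1 gave 46 genes against trehalose and 153 against NaCl. The causes were not tested.

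Leaving out libraries gave 294 to 601 genes for Mannitol 1 h (601 without Mannitol 1 h replicate 1), 524 to 977 transcripts, 2151 to 2805 genes for Mannitol 3 h, 1106 to 1519 for 24 h, 782 to 1180 for the response at 3 h against 1 h, 1273 to 2093 for that at 24 h against 1 h, 13 to 44 against trehalose, 63 to 107 against NaCl and 1135 to 2100 against paraquat (2100 without Mannitol 1 h replicate 1). The differences in TPM share ran from 6.13 to 9.03 points for the 100 most abundant genes, from 0.256 to 0.354 for noncoding genes and from -0.108 to 0.108 for ARId1. 

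With scaling the median log2 change was 0.44 in Block 1, 0.31 in Block 3, 0.32 in Block 4, 0.42 in all of ARId1, 0.0087 for PvLea12a, -0.36 for the transcription factors and 0.31 for nc472 and g7775. For ARId1 it was 0.14 without Mannitol 1 h replicate 1. The medians of Block 3, Block 4, PvLea12a, the pair nc472 and g7775, and the noncoding genes (0.06) turned from below to above 0 with scaling. For the noncoding genes the turn rested on Mannitol 1 h replicate 1, without which the scaled median was -0.08. Among the genes named by rule, signs turned only for changes not called: with scaling nc472 (0.089), PvLea12a (g17258, 0.0087), PvLea4 (0.32) and PvLea5 (0.36), with a pseudocount of 0.1 PvLea12a (0.060), and with a library left out HSF (-0.14 to 0.11), PvLea12a (-0.31 to 0.066) and PvLea5 (-0.27 to 0.10). In ARId1 scaling also turned g16177 (-0.28 to 0.02), g16180 (-0.16 to 0.23), g16203 (-0.10 to 0.29), g16206 (-0.22 to 0.17) and g16207 (-0.11 to 0.28), of which g16180 had an adjusted p under 0.05 as deposited (limma, 0.00825).

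The labels do not say whether the replicate numbers pair the samples. The residuals of same-numbered Control 1 h and Mannitol 1 h libraries had correlations of -0.17, -0.46 and 0.38 across genes. With 3 libraries a group these residuals depend on each other, so they cannot decide it. With replicate number as a block 362 genes were called, and no count moved by over 1.5 times.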

Other observations

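Genes that rose often had numbers close to each other. Of the 39 rises with a protein-coding ID, 14 (35.9%) had another rise within 10 gene numbers, while 4.25% of the other 8904 genes tested had a rise that close. For the 314 falls the shares were 40.1% and 34.3%. After median ratio scaling they were 29.5% and 11.1% for 95 rises and 14.7% and 3.89% for 34 falls. Whether genes with close numbers share sequence or position outside ARId1 was not tested.

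Single transcripts of some genes differed widely between the libraries. The transcript g7775.t5 was listed at 0 in 2 control libraries and had 495 TPM in the third, against 449, 1537 and 2162 TPM in the mannitol libraries. The transcript g16208.t102 of PvLea11 had 33.1, 48.6 and 19.3 TPM in control libraries and was listed at 0 in all 3 mannitol libraries, while the log2 change of the gene's sum was 0.12 (limma adjusted p = 0.546), or 0.51 after scaling (limma adjusted p = 7.55e-05). Both were chosen for their values, and reads shared among transcripts of 1 gene are divided by the quantification, so the split between them is uncertain.

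On the principal axis of the variation within groups, computed from the 48 stress libraries outside this comparison, the control libraries scored -19.2, -30.7 and -4.15 and the mannitol libraries -25.6, 24.1 and 22.7. This axis held 53.8% of the variance within the 2 groups and 24.6% of the squared mannitol change. Trehalose 1 h replicate 2 and NaCl 1 h replicate 2 had scores of 20.2 and 48.3, while the other libraries of those groups scored from -22.0 to -16.0. What the axis stands for was not tested.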
